A study of Mus musculus with 2 samples.

Results

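The mm10 assembly of the mouse genome keeps some sequence as scaffolds that have no position on a chromosome, and H3K9me3 peaks on these scaffolds are described here. They were taken from the pooled mm10 peak list as every peak whose sequence was not chromosome 1 to 19, X or Y. These were 294 of 203763 peaks, on 28 scaffolds. Not all of the scaffolds are unplaced in the strict sense. By their names, 21 are assigned to no chromosome (names starting chrUn) and hold 224 of the peaks. The other 7 are assigned to a chromosome without a position on it (names ending in random) and hold 70 of the peaks. Of these 7, 3 are assigned to chromosome 1, 3 to chromosome 4 and 1 to X.

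The histone mark H3K9me3 was profiled by ChIP-seq, which sequences the DNA that an antibody to the mark pulls down. The cells were E14TG2a.4, a male mouse embryonic stem cell line of strain 129/Ola. The labels give its stage as embryonic, at 3.5 days, and name no genetic change or treatment. The series holds 1 group of 2 biological replicates, each with a biosample record of its own and both from the same line and donor. No control library and no second condition were analysed here, and no test between groups was possible. The data were peak lists with no expression values, so the cell type could not be checked against marker genes, and read depth is unknown.

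H3K9me3 is laid down by methyltransferases such as Suv39h1, Suv39h2 and Setdb1 and is read by HP1 proteins, which compact the chromatin. It is known for covering the satellite repeats around mouse centromeres. In mouse embryonic stem cells it also silences endogenous retroviruses, through Trim28 and Setdb1. Assembly scaffolds often remain without a position because they are rich in repeats or in duplicated sequence. Reads from repeats can map to several places, and the treatment of such reads is not stated in the labels or files. No sequence or gene was assigned to the scaffolds, since the mouse genome sequence used here is mm9 and the GRCm38 gene table used here names none of these scaffolds.

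The scaffold peaks were a small share of each list, and a similar share in all of them. They were 0.144% of the pooled peaks and covered 159.5 kb, which is 0.142% of the bases in that list. The authors' replicated list, derived from the pooled list and the list of each replicate, had 180 scaffold peaks on 27 scaffolds, covering 130.6 kb. Replicate 1 had 223 on 27 scaffolds, covering 92.8 kb, and replicate 2 had 299 on 28 scaffolds, covering 146.2 kb. The 2 replicates thus averaged 261 ± 53.7 scaffold peaks and 119.5 ± 37.8 kb (SD, n = 2). No list had a peak on a scaffold that the pooled list lacked. The 3 mm9 lists had 0 regions on scaffolds and used 21 sequences each.

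The peaks were spread unevenly over the scaffolds. The 10 scaffolds with the most pooled peaks held 188 of the 294. Among them chrUn_GL456393 had 34 pooled peaks, chr1_GL456211_random 29, chrUn_GL456239 22 and chrUn_GL456383 17. The scaffolds chr4_GL456216_random, chrUn_GL456366, chrUn_GL456392 and chrX_GL456233_random had 15 each, chrUn_GL456390 had 14 and chrUn_JH584304 had 12. The remaining 18 scaffolds held 106 peaks. Among these, chrUn_GL456359 had 11, chrUn_GL456394 and chrUn_GL456396 had 10 each, and chrUn_GL456367 had a single peak. The lengths of the scaffolds were not used here, so counts could not be set against length.

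**Figure D1:**
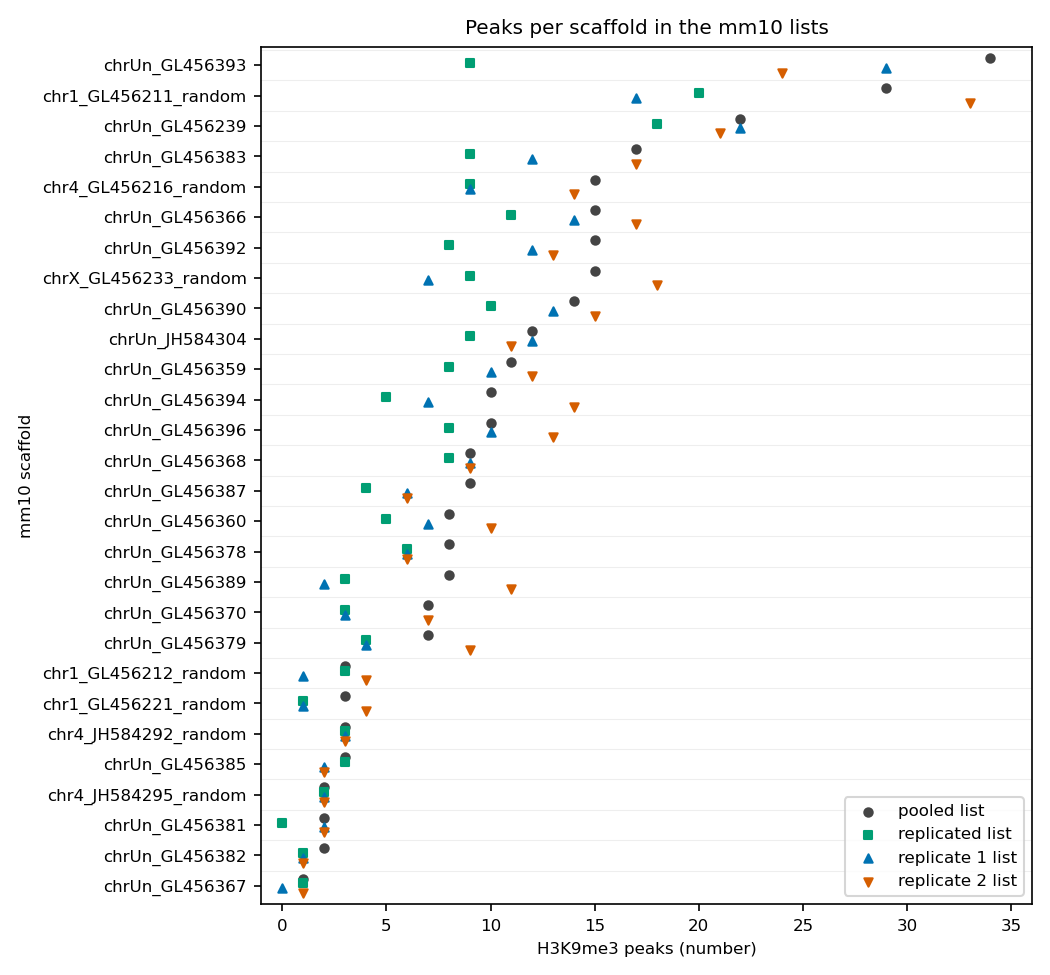
Number of H3K9me3 peaks on each mm10 scaffold (horizontal axis), with 1 row per scaffold ordered by pooled peaks and 1 marker per list. Replicate 2 had more peaks than replicate 1 on 17 scaffolds, fewer on 3 and as many on 8, and chrUn_GL456393 is the row where the replicated list falls furthest below the others, at 9 peaks.

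The share of scaffold peaks that replicated was close to that of all peaks. Of the 294 pooled scaffold peaks, 180 or 61.2% were identical to a replicated peak, with an exact Clopper-Pearson 95% interval of 55.4% to 66.8%. The background over all pooled peaks was 60.6%, which lies inside that interval. The interval covers counting error only and treats neighbouring peaks as independent, which they are not. On scaffolds assigned to no chromosome 133 of 224 peaks were replicated, and on scaffolds assigned to a chromosome 47 of 70. Replicated scaffold peaks had a median fold enrichment of 4.05 and a median width of 477.5 bp. Those outside the replicated list had 2.70 and 229.5 bp. Chromosome peaks gave a similar contrast, with 4.20 and 528 bp in the replicated list and 2.70 and 216 bp outside it. Fold enrichment is the authors' linear ratio for each peak, and the labels and files do not state its denominator. A deposited −log10 q of at least 2 was reached by 283 of the 294 scaffold peaks, 96.3%, where the background was 94.3%.

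Replicate 1 found the scaffold peaks about as often as it found peaks in general, and replicate 2 found them somewhat more often. With an overlap of at least 1 bp, peaks of both replicates overlapped 145 scaffold peaks, 49.3%, against 48.2% of all pooled peaks. Replicate 1 overlapped 169, 57.5%, against 58.3% of all peaks, and replicate 2 overlapped 250, 85.0%, against 79.4%. A further 105 scaffold peaks were overlapped by replicate 2 alone, 35.7%, where the background was 31.3%, and 24 by replicate 1 alone, 8.16%, where it was 10.1%. Neither replicate overlapped 20, or 6.80%, where it was 10.4%. By class, replicate 2 overlapped 67 of the 70 peaks on scaffolds assigned to a chromosome, 95.7%. On scaffolds assigned to none it overlapped 183 of 224, 81.7%. The median pooled fold enrichment was 4.31 for peaks seen in both replicates, 3.00 for replicate 2 alone, 2.81 for replicate 1 alone and 2.51 for neither. Of the 145 seen in both, 143 were in the replicated list, which also held 32 seen in replicate 2 alone, 4 in replicate 1 alone and 1 in neither. These medians and this split were made for scaffold peaks only. Whether they differ from those of all pooled peaks is therefore not known.

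Measured in bases, the overlap of the replicates was similar on scaffolds and on chromosomes. The Jaccard index, the bases covered in both replicates divided by those covered in either, was 0.460 on scaffolds and 0.479 on chromosomes. Of the scaffold peaks in the replicate 1 list, 186 or 83.4% were overlapped by a replicate 2 peak, against 76.1% of its chromosome peaks. Of those in the replicate 2 list, 155 or 51.8% were overlapped by a replicate 1 peak, against 53.3% on chromosomes. Some scaffold peaks of a replicate lay outside every pooled peak, 10 of 223 in replicate 1 and 37 of 299 in replicate 2. On chromosomes the same held for 15624 of 161342 peaks in replicate 1 and 25572 of 198649 in replicate 2.

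The gap between the replicates in peak counts was wider on scaffolds assigned to a chromosome, and the gap in covered bases less so. There replicate 1 had 40 peaks and replicate 2 had 78, a ratio of 1.95 for replicate 2 over replicate 1. On scaffolds assigned to no chromosome the replicates had 183 and 221 peaks, a ratio of 1.21, and on chromosomes the ratio was 1.23. In covered bases the ratio was 1.76 on scaffolds assigned to a chromosome, 1.53 on those assigned to none and 1.44 on chromosomes. The Jaccard index of the replicates went the other way, at 0.518 on scaffolds assigned to a chromosome and 0.447 on those assigned to none. The scaffold chrX_GL456233_random had 7 peaks in replicate 1 and 18 in replicate 2, and chr1_GL456211_random had 17 and 33. On chr4_JH584292_random and chr4_JH584295_random the replicates had equal numbers. With 1 value per replicate and class, no test of this difference was made.

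At 145 scaffold peaks seen in both replicates, fold enrichment was mostly higher in replicate 2. It was higher there at 113 of them, 77.9%, against a background of 80.1% over all pooled peaks seen in both. The medians were 3.90 in replicate 1 and 4.88 in replicate 2, with a median ratio of replicate 2 over replicate 1 of 1.33 on scaffolds and 1.33 on chromosomes. Across the 145 peaks the fold enrichments of the replicates were correlated, with Spearman's rho at 0.754 and Pearson's r at 0.793. Across the 97978 chromosome peaks seen in both, rho was 0.656 and r was 0.796. Neighbouring peaks share their scaffold and both axes come from the same pooled peaks, so these correlations are a description. On chrUn_GL456393 and chrUn_JH584304 replicate 2 was higher at 4 of 8 and 4 of 9 peaks.

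**Figure D2:**
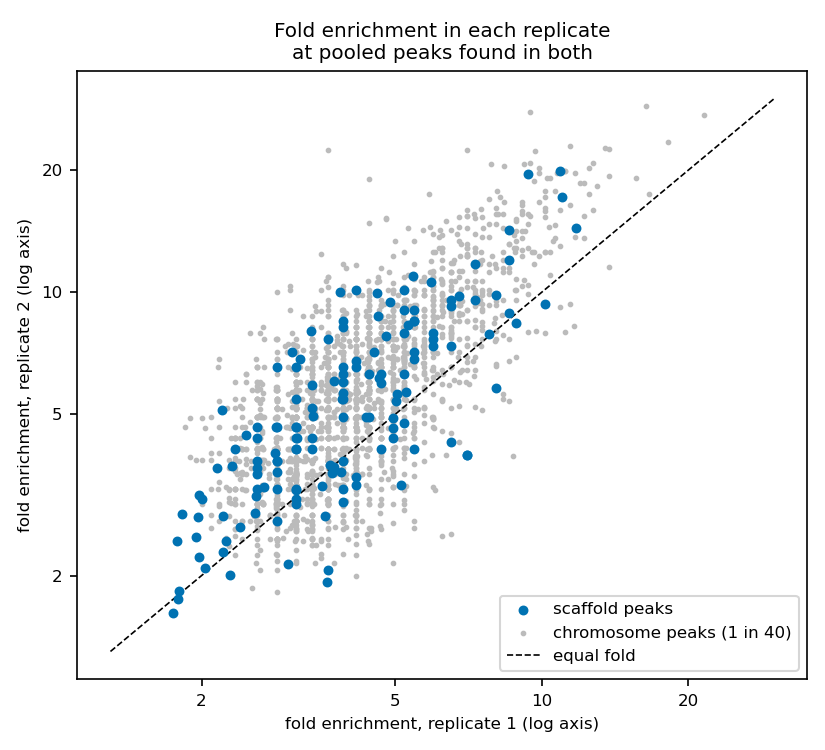
Deposited fold enrichment of the strongest overlapping peak in replicate 1 (horizontal, log axis) and replicate 2 (vertical, log axis). Blue points are the 145 scaffold peaks found in both replicates, grey points are 2478 chromosome peaks found in both (from 1 in 40 pooled chromosome peaks), and 113 of the blue points lie above the dashed line of equal fold.

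The peak with the highest pooled fold enrichment lay on chrUn_GL456359 from 19153 to 20635, at 16.8 with a −log10 p of 101.1. It had 10.9 in replicate 1 and 19.96 in replicate 2, a mean of 15.4 ± 6.39 (SD, n = 2). Among chromosome peaks, 1056 had a higher fold enrichment, so this peak stood above 99.5% of them. The 10 strongest scaffold peaks were at or above a fold enrichment of 10.2. All 10 were in the replicated list, as were 99.0% of all pooled peaks with a fold enrichment of at least 4. All 10 had the higher value in replicate 2. The background of 80.1% covers pooled peaks of any fold enrichment seen in both replicates, and none was taken for strong peaks alone.

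Of these 10 peaks, 7 lay on scaffolds assigned to a chromosome, and 6 of the 7 on chromosome 4 scaffolds. On chr4_GL456216_random the peak from 30849 to 33903 had a pooled fold enrichment of 16.7, with 10.99 in replicate 1 and 17.2 in replicate 2. Beside it, the peak from 34069 to 35233 had 14.6, with 11.8 and 14.4, and a −log10 p of 114.0, the highest of any scaffold peak. The third, from 35434 to 36154, had 11.6, with 8.58 in replicate 1 and 12.0 in replicate 2. These 3 strong peaks lie next to each other, and the other 12 peaks of the scaffold were weaker, with a scaffold median of 4.20.

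The other chromosome 4 scaffolds had few peaks, and all of them were strong. On chr4_JH584292_random 3 peaks lay between 12685 and 14912, with a median fold enrichment of 10.2. The strongest, from 13986 to 14912, had 12.6 in the pooled list, 9.38 in replicate 1 and 19.5 in replicate 2. On chr4_JH584295_random both peaks lay in the first 1745 bases, at 9.35 and 10.2, and the stronger had 8.06 in replicate 1 and 9.84 in replicate 2. All 5 peaks of these 2 scaffolds were found in both replicates and in the replicated list.

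The remaining peaks among the 10 strongest were spread over other scaffolds. On chr1_GL456211_random the peak from 135393 to 135784 had a pooled fold enrichment of 12.6, with 8.58 in replicate 1 and 14.2 in replicate 2. On chrUn_GL456366 the peak from 37568 to 39885 had 10.7, with 8.58 and 8.89. On chrUn_GL456387 the peak from 22427 to 23343 had 10.5, with 7.80 and 7.87. The replicates of the last 2 peaks differed by far less than those of the peak on chrUn_GL456359.

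As a group, scaffolds assigned to a chromosome had stronger peaks than those assigned to none. The median fold enrichment was 3.01 for the 224 peaks on scaffolds assigned to none and 4.20 for the 70 on scaffolds assigned to a chromosome, beside 3.30 for chromosome peaks. A fold enrichment of at least 4 was reached by 55 of 224 peaks, 24.6%, and by 41 of 70, 58.6%. Over all pooled peaks the background was 34.5%, close to the 32.7% of all scaffold peaks. Each replicate gave the same order, with medians of 3.18 on scaffolds assigned to none and 4.81 on the others in replicate 1, and 3.55 and 4.37 in replicate 2. The difference between these classes was not tested, since peaks of a scaffold share their source.

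Of the 96 scaffold peaks with a fold enrichment of at least 4, 92 were in the replicated list, 95.8%, against 99.0% of all pooled peaks above that value. The 4 that were not lay on chr1_GL456221_random, chr4_GL456216_random, chrUn_GL456378 and chrX_GL456233_random, at 4.05, 4.50, 4.46 and 4.20. They were looked up after their values were seen. The peak on chrUn_GL456378 was overlapped by replicate 1 alone and the others by replicate 2 alone.

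Scaffold peaks lay close together. The median gap between neighbouring pooled peaks was 570 bp on scaffolds and 1234 bp on chromosomes, and 165 of 266 gaps on scaffolds, 62.0%, were 1 kb or less, against 47.8% on chromosomes. A scaffold cannot hold a gap longer than itself, and this limit moves with the comparison. Its part in the result was not tested. The order was the same in replicate 1, at 703.5 bp and 1827 bp, and in replicate 2, at 556 bp and 976 bp, where the same limit holds. Single scaffolds varied, with pooled median gaps from 197 bp on chr4_JH584295_random to 19650 bp on chr1_GL456221_random. On chrX_GL456233_random, with 15 pooled peaks, the median gap was 1534 bp, above that of chromosomes. Peak widths were alike, with medians of 334.5 bp on scaffolds and 343 bp on chromosomes. Of the scaffold peaks 36 or 12.2% were at least 1000 bp wide, against a background of 12.4%. Of these 36, 34 lay on scaffolds assigned to no chromosome, 15.2% of the 224 peaks there. The other 2 were 2.86% of the 70 peaks on scaffolds assigned to a chromosome.

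Joined across gaps of up to 1 kb, the 294 peaks formed 129 blocks with a median length of 1.01 kb, and 55 blocks were a single peak. The 203469 chromosome peaks formed 106249 blocks in the same way. Block lengths and single-peak blocks were counted for scaffolds only, so whether they are particular to scaffolds is not known. The longest lay on chrUn_GL456396 from 4251 to 16450, 12.2 kb with 6 pooled peaks, of which pooled peaks covered 83.0%. Replicate 1 peaks covered 35.0% of it and replicate 2 covered 79.6%. The second, on chrUn_GL456239 from 5109 to 14250, was 9.14 kb long and was covered over 49.6% in replicate 1 and 72.3% in replicate 2. A block of 6.73 kb on chr4_GL456216_random, from 29427 to 36154, holds the 3 strong peaks described above. It was covered almost equally in the replicates, over 78.5% and 81.9%. In all, 9 blocks were at least 5 kb long.

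**Figure D3:**
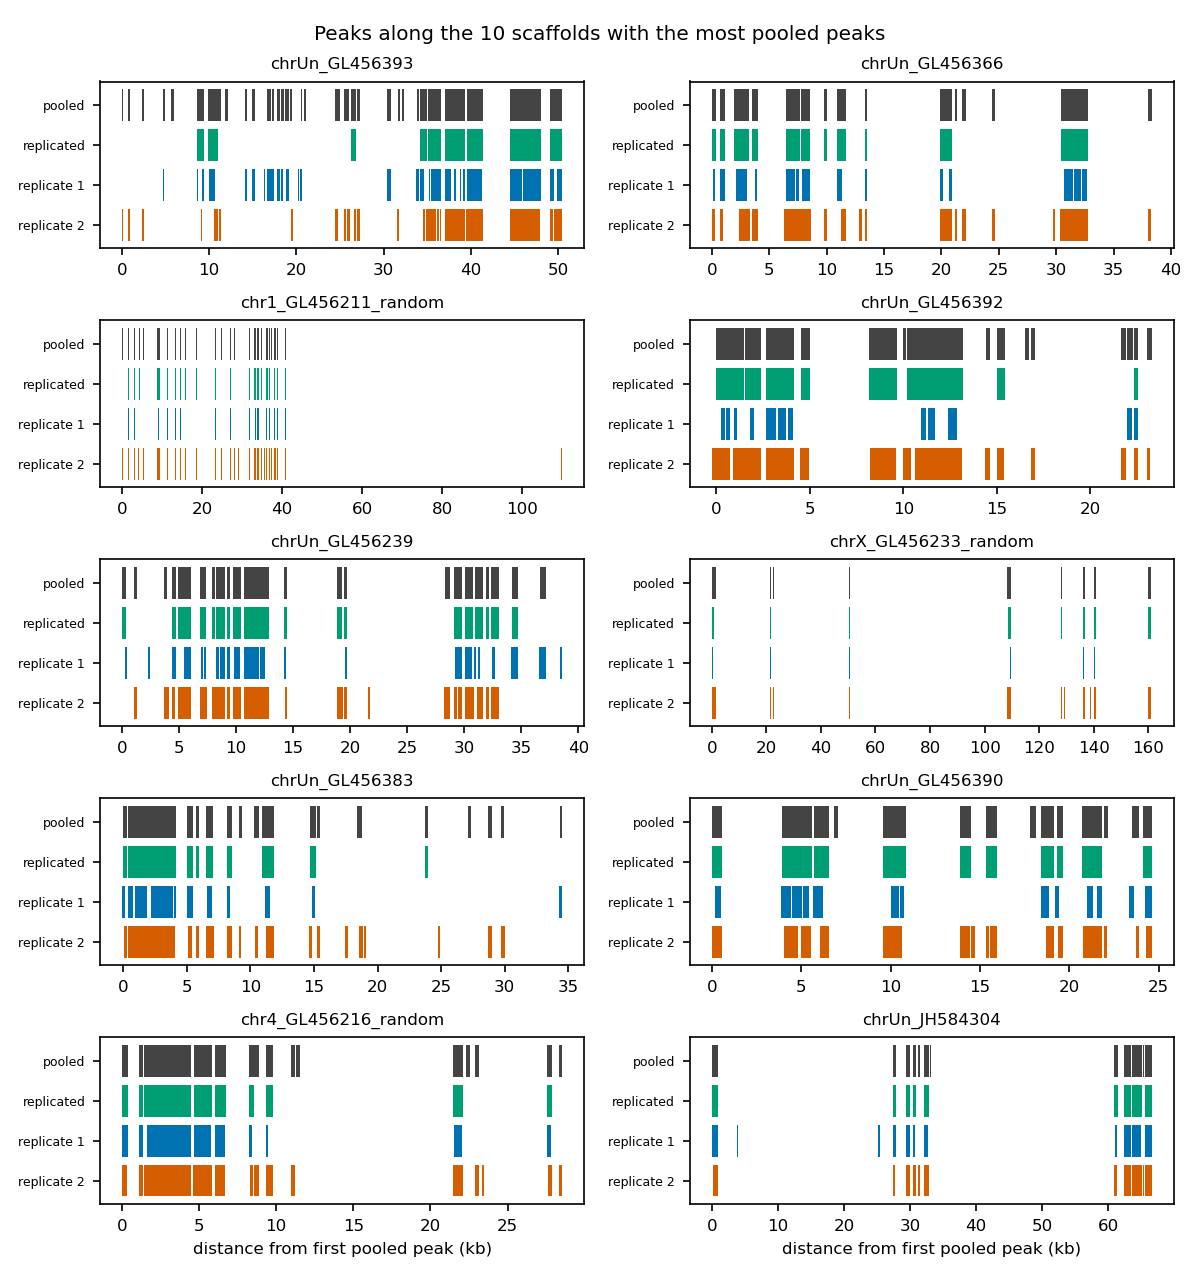
Peaks along the 10 scaffolds with the most pooled peaks, drawn to scale as bars in 4 rows per scaffold (pooled, replicated, replicate 1 and replicate 2), against the distance from the scaffold's first pooled peak in kb. On the left of chrUn_GL456393 most pooled peaks are missing from the replicated row, while on chr4_GL456216_random the leading block is filled in all 4 rows.

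The 5 widest scaffold peaks differed widely in pooled fold enrichment. The widest was 3832 bp, on chrUn_GL456383 from 1258 to 5089, with a pooled fold enrichment of 3.63, and 4.16 in replicate 1 and 6.77 in replicate 2. Next came 3573 bp on chrUn_GL456393 from 49608 to 53180, at 9.15, with 7.28 in replicate 1 and 9.57 in replicate 2. On chrUn_GL456396 the peaks from 12336 to 15789 and from 8270 to 11694 were 3454 and 3425 bp wide, at 3.08 and 1.79. The first of these had 3.74 in replicate 1 and 3.71 in replicate 2, and the second had 4.64 and 6.14. A replicate's value is that of its strongest peak overlapping the pooled one, and at these 2 peaks and the widest one both replicates lay above the pooled value. The fifth widest, at 3055 bp, is the strongest peak of chr4_GL456216_random, with the second highest fold enrichment of all scaffold peaks.

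The scaffold with the most pooled peaks had the lowest replicated share of the 10 with the most. On chrUn_GL456393, pooled peaks ran from 5153 to 55655 and 9 of 34 were in the replicated list, 26.5%. Both replicates overlapped 8 of them, replicate 1 alone 11, replicate 2 alone 10 and neither 5. The replicates had similar totals, 29 peaks over 14.2 kb in replicate 1 and 24 over 13.9 kb in replicate 2, and its median fold enrichment was 2.75. The base overlap of the replicates there was not unusual, with a Jaccard index of 0.439, above that of chrX_GL456233_random at 0.310 and chrUn_GL456392 at 0.326. Some stretches nevertheless had peaks of mainly 1 replicate, and these were looked up after their values were seen. From 21757 to 26230 a block of 8 pooled peaks held none of the replicated list, and replicate 1 covered 49.1% of it and replicate 2 covered 3.69%. From 29641 to 32494 replicate 1 covered 0% and replicate 2 covered 42.1%, and 1 of 5 pooled peaks was replicated. The wide peak at 49608 described above was covered over 94.2% in replicate 1 and 98.3% in replicate 2. By contrast, chrUn_GL456239 had 18 of 22 pooled peaks replicated, with 22 peaks in replicate 1 and 21 in replicate 2. The strongest peak there, from 11119 to 11845, had 7.80 in the pooled list, 5.93 in replicate 1 and 10.6 in replicate 2.

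The leading peaks of 4 further scaffolds had pooled fold enrichments between 6.45 and 8.90. Each was higher in replicate 2, where the background over all pooled peaks seen in both, of any fold enrichment, was 80.1%. On chrUn_GL456390 the peak from 20763 to 21881 had 8.90 in the pooled list, 4.59 in replicate 1 and 9.97 in replicate 2. On chrUn_GL456392 the peak from 2929 to 4394 had 7.80, with 5.46 and 9.02. On chrX_GL456233_random the peak from 302985 to 303352 had 6.60, with 3.90 and 8.47. On chrUn_GL456383 the peak from 7405 to 7990 had 6.45, with 3.90 in replicate 1 and 8.20 in replicate 2.

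Among the scaffolds with 1 to 3 peaks, replication ran from none to all. On chrUn_GL456381 both pooled peaks, at 2.55 and 3.00, were outside the replicated list, which held no peak of that scaffold. Replicate 2 overlapped both, and replicate 1 had 2 peaks elsewhere on the scaffold. On chrUn_GL456382 the pooled peaks had 2.55 and 2.85 and only the second was replicated, and the single peak of chrUn_GL456367, at 3.15, was replicated although replicate 1 had none there. By contrast, chr1_GL456212_random and chrUn_GL456385 had all 3 of their peaks in the replicated list, with medians of 4.61 and 6.15. On each of these, however, peaks of both replicates overlapped only 1 of the 3.

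Fold enrichment and −log10 p did not go together on some scaffolds as they did on chromosomes. Chromosome peaks in the pooled list had a median fold enrichment of 3.30 and a median −log10 p of 7.39. Of the 294 scaffold peaks 32, or 10.9%, lay below the first and above the second, against a background of 0.799% of all pooled peaks. Of these 32, 31 lay on scaffolds assigned to no chromosome, 13.8% of the 224 peaks there. The other 1 was 1.43% of the 70 peaks on scaffolds assigned to a chromosome. The 32 were concentrated on chrUn_JH584304 with 9 and chrUn_GL456392 with 7, and chrUn_GL456368 and chrUn_GL456390 had 4 each. The same count against each list's own chromosome medians was 22 of 223 in replicate 1, with a background of 1.24%, and 31 of 299 in replicate 2, with a background of 2.01%. In the replicated list it was 19 of 180, with a background of 1.61%. The per-sample lists were called separately but are part of the pooled data, so they are not independent of it and give no separate support. This combination was not among the planned results.

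On chrUn_JH584304 the combination was found at 9 of 12 peaks in the pooled list, 7 of 12 in replicate 1 and 10 of 11 in replicate 2. Its 12 pooled peaks, from 1886 to 68536, had a median fold enrichment of 2.25, below that of every other scaffold, and a median −log10 p of 21.3. In replicate 1 the 12 peaks there had medians of 2.12 and 11.2, and in replicate 2 the 11 peaks had 2.38 and 16.4. Its first peak, from 1886 to 2851, had a fold enrichment of 4.28 with a −log10 p of 72.8, the sixth highest −log10 p among scaffold peaks but only rank 81 by fold. That peak had 3.70 in replicate 1 and 3.58 in replicate 2, a mean of 3.64 ± 0.0904 (SD, n = 2). In the last cluster, the peak from 65528 to 66936 had 2.40 with a −log10 p of 41.4, and 2.21 and 2.81 in the replicates. Of the 12 peaks 9 were in the replicated list.

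**Figure D4:**
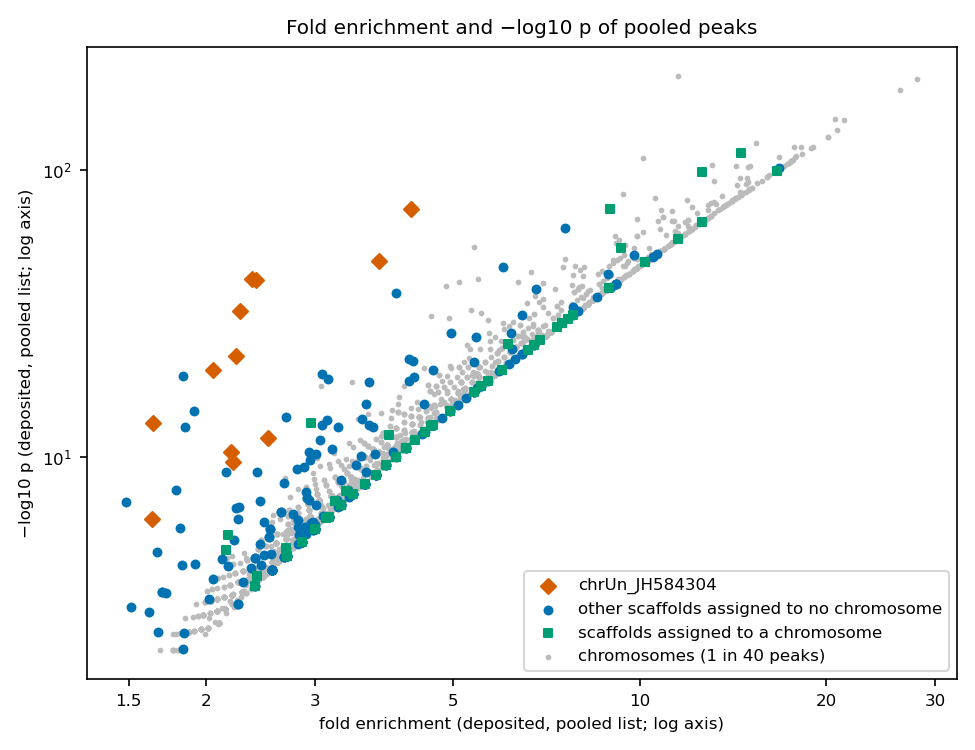
Deposited fold enrichment (horizontal, log axis) and −log10 p (vertical, log axis) of pooled peaks. Orange diamonds are the 12 peaks of chrUn_JH584304, blue circles the other peaks on scaffolds assigned to no chromosome, green squares the 70 peaks on scaffolds assigned to a chromosome, and grey dots 5087 chromosome peaks (1 in 40). The orange diamonds lie above the band of grey dots at the same fold.

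The deposited fold values themselves differed in kind. In the pooled list, 35 fold values were each shared by at least 1000 peaks, spaced by a median of 0.150, and peaks with one of these values made up 56.3% of the list. On scaffolds assigned to no chromosome 86 of 224 peaks, 38.4%, had such a value, and on scaffolds assigned to a chromosome 43 of 70, 61.4%. On 5 scaffolds no peak had one. These were chrUn_JH584304 with 12 peaks and chrUn_GL456368 with 9, and also chr1_GL456212_random with 3, chr4_JH584292_random with 3 and chr4_JH584295_random with 2, whose median fold enrichments were higher, at 4.61, 10.2 and 9.78. The shared values ran only from 2.25 to 6.15. Every peak on the chromosome 4 scaffolds named here lay above that range, from 7.50 and 9.35 upwards, so none could have one. Peaks below the range, down to 1.63 on chrUn_JH584304 and 1.84 on chrUn_GL456368, could not have one either. Scaffold peaks with a shared value below 3.30 all had a −log10 p below 7.39. None of them was therefore among the 32 peaks with low fold enrichment and high −log10 p. The labels and files do not state how a fold value was computed, and the part of this stepping in the low fold enrichments was not tested.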

How the data were processed

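H3K9me3 ChIP-seq of 2 biological replicates (1 group) of E14TG2a.4 was used as deposited peak lists. In the 4 mm10 lists the authors deposited a fold enrichment (linear ratio), a −log10 p and a −log10 q per peak. Per the deposited file lists, reads of both replicates were combined for the pooled list, and the replicated list drew on it and on the lists per replicate. Neither the labels nor the files name the peak caller or the aligner. The depth behind the deposited ratios is unknown, which limits their precision. Only the sequence names of the 3 mm9 lists were used, and no mm10 sequence was used. Whether the replicates share any culture is not stated.

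Overlap was at least 1 bp. Replicated meant an identical interval. A replicate's fold at a pooled peak was that of its strongest overlapping peak. Coordinates are mm10, counted from 1. Functions were checked on simulated intervals, in Python 3.11.15 with pandas 2.3.3, numpy 2.4.6 and scipy 1.17.1. Named were the 10 scaffolds with the most pooled peaks and their strongest peaks, scaffolds with no replicated peak, and the 10 strongest and 5 widest peaks. The gene lists of the plan, with zinc finger, vomeronasal receptor, Y-linked, Pramel, Speer, chemokine, ribosomal RNA and mitochondrial genes, gave no result, because the gene table names 0 of these scaffolds. The members and lists were chosen with earlier results of these data known. Alternatives were limits of 2 on −log10 q and 4 on fold, merged peaks, other overlap rules, single replicates and subsets of scaffolds.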

Additional observations from a re-analysis of the deposited data

How the results depend on the processing

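Of 43 alternative values of the scaffold counts, shares, medians and covered bases, 30 stayed close to the main value and 13 moved. Close means within 1.5 times for a count, within the exact 95% interval for a share, and within 1 SD of the replicates otherwise. A −log10 q of at least 2, leaving out chrUn_GL456393, or keeping only scaffolds assigned to no chromosome moved none of them. A fold enrichment of at least 4 kept 96 peaks with a median of 5.97 over 73.1 kb, of which 95.8% were replicated and 87.5% seen in both replicates, against 99.0% and 92.8% of all pooled peaks. Merging peaks within 1 kb gave 129. The median fold enrichment was 4.05 in the replicated list. Requiring an overlap of 50% of the pooled peak, or of both peaks, lowered the share seen in both replicates to 34.7% under either rule, against 31.1% and 30.2% of all pooled peaks. With 1 replicate left out, the count ran from 223 to 299, the median fold enrichment from 3.38 to 3.83, the covered bases from 92.8 to 146.2 kb and the share overlapped by the remaining replicate from 57.5% to 85.0%. The cause of these moves was not tested, beyond the fewer peaks or the single replicate that an alternative leaves. No paired analysis was possible because the series has 1 group. Read depth is unknown, so no limit of detection could be given.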
